A study of Mus musculus with 6 samples.

Results

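The transcripts of 8 Toll-like receptors (Tlr1 to Tlr7 and Tlr9), their adaptor Myd88 and the co-receptor Cd14 were followed in RNA sequencing of total mouse skin. These 10 genes were taken by symbol from a table of 23951 genes, and all 10 were among the 17021 genes that averaged 0.1 FPKM or more over the 6 mice (fragments per kilobase of transcript, scaled to the mapped fragments of the library). The study deleted JunB, a subunit of the AP-1 transcription factor, in cells that express keratin 5, the basal keratinocytes of the epidermis and hair follicle. Skin of 3 JunB dep mice was compared with that of 3 JunB +/+ littermates, all C57Bl/6 and 6 to 7 months old. The study examined skin inflammation and Staphylococcus aureus colonisation in these mice. Each library is 1 mouse, so p-values measure the spread between these mice, and cells of the skin other than the keratin 5 lineage still carry JunB. Libraries are named by the replicate numbers 0, 1 and 2 of the labels.

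Toll-like receptors are membrane proteins that bind molecules shared by groups of microbes. Tlr2 pairs with Tlr1 or Tlr6 to bind bacterial lipopeptides, including those of staphylococci, Tlr4 binds lipopolysaccharide handed over by Cd14 and Ly96, Tlr5 binds flagellin, and Tlr3, Tlr7 and Tlr9 bind nucleic acids inside endosomes. All of these receptors except Tlr3 signal through Myd88, which recruits the Irak kinases and leads to NF-kB activation, and Cd14 also assists Tlr2. In skin they are carried by macrophages, dendritic cells and neutrophils, and some also by keratinocytes.

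Tlr1 and Tlr6 are neighbouring copies whose coding sequences share identical stretches, which bears on how far their values can be separated. Both lie on the minus strand of mouse chromosome 5 (mm9), Tlr1 at 65316050-65324000 and Tlr6 at 65344345-65351287, with 20344 bases between them. Of the 2339 windows of 50 bases in the Tlr1 coding sequence, 454 (19.4%) occurred unchanged in that of Tlr6, and no other pair of the 10 genes shared any. The longest identical run was 229 bases. It lies within the stretch printed here, coding bases 1450 to 1749 of Tlr1 and 1489 to 1788 of Tlr6 from the GENCODE models of mm9, where capitals mark the 3 bases that differ.
Tlr1: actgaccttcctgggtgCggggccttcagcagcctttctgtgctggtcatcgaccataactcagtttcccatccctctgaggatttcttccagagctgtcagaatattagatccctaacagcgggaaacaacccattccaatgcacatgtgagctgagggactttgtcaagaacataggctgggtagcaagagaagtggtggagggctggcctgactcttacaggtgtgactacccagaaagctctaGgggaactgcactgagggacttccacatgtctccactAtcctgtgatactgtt
Tlr6: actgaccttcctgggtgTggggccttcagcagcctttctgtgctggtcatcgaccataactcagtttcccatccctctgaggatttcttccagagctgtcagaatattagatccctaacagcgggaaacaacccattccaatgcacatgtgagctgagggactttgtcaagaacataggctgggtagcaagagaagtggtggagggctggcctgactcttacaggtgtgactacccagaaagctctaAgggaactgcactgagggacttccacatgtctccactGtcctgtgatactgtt
The study's alignment let a read map to several places, so the FPKM values of Tlr1 and Tlr6 may each hold reads of the other.

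Promoter windows from 250 bases before to 50 after the transcript start were searched for 7 of the 10 genes, all but Tlr4, Tlr7 and Cd14. They came from RefSeq annotation of GRCm38.p6, 9 windows in all. The AP-1 motif TGANTCA, searched on both strands, was in 1 of these 9, against 7.81% of 32851 promoter windows. The CRE-type AP-1 motif TGACGTCA was in 0 of 9, against 1.79%. The NF-kB consensus was in 2 of 9, those of Tlr2 and Tlr3, against 8.46%. The 3 windows with a match are shown 5′ to 3′ on the gene's strand. They carry every AP-1 or NF-kB match among the 9 windows, with the matched letters in capitals: the NF-kB consensus in Tlr2 (chr3:83841559-83841858, minus strand, an overlapping pair of matches and a single one) and in Tlr3 (chr8:45410331-45410630, minus strand), and the AP-1 motif in Tlr9 (chr9:106222348-106222647, plus strand).
Tlr2: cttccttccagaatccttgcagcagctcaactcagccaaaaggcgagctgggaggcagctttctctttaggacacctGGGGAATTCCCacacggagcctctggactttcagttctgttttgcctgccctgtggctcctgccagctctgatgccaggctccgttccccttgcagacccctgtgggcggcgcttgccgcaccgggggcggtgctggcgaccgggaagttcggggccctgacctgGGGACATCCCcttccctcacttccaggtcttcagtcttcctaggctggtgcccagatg
Tlr3: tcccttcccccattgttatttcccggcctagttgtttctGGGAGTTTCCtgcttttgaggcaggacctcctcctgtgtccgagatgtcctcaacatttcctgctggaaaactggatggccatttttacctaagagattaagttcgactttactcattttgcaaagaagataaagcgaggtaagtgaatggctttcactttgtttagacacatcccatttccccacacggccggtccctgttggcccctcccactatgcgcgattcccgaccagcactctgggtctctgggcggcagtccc
Tlr9: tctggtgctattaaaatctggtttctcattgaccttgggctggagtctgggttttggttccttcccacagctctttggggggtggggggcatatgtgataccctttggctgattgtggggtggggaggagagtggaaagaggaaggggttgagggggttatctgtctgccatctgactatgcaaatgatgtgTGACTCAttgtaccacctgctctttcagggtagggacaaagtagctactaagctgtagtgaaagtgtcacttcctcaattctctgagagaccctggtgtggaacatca
A match describes the letters only and was not tested as a site.

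The libraries differed in ways that touch the values below. Whole skin was labelled, and keratinocyte markers were abundant in every library, although Krt14 is listed at 0 in the library labelled JunB dep replicate 0. Junb itself was 59.3, 72.4 and 56.9 FPKM in JunB +/+ replicates 0, 1 and 2 and 130, 42.8 and 28.0 FPKM in the JunB dep replicates. It was thus above every control in the library labelled JunB dep replicate 0 and below every control in replicates 1 and 2. Whole skin holds other cells that still carry JunB, so its level does not test the label. The paper describes the sequenced JunB dep skin as lesional. Skeletal muscle markers in the library labelled JunB dep replicate 0, at 851 FPKM in sum, lay beside the 857 and 2025 FPKM of replicates 1 and 2 and below the 8844 to 10640 FPKM of the controls. That library also held 3797 FPKM of markers of mucosal epithelium, against at most 1.40 FPKM in any other, while JunB +/+ replicate 0 held 1665 FPKM of liver markers. The group difference of each of the 10 genes is therefore given with and without the library labelled JunB dep replicate 0. FPKM values summed to 481078 to 630363 per library, and the depth is unknown.

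In JunB +/+ skin the adaptor was far more abundant than any receptor. On the FPKM scale, which is per length, the mean levels were ordered Myd88, Cd14, Tlr2, Tlr3, Tlr4, Tlr5, Tlr7, Tlr6, Tlr1 and Tlr9, from 23.2 ± 1.67 to 0.438 ± 0.312 FPKM (SD, n = 3). Of neighbours in that order, the ranges of the 3 mice did not overlap between Myd88 and Cd14, between Cd14 and Tlr2, and between Tlr3 and Tlr4. Tlr2 and Tlr3 overlapped, and from Tlr4 down to Tlr9 each gene overlapped with the next. In the library labelled JunB dep replicate 0 this order was broken, with Cd14 above Myd88. The ratio of Cd14 to Myd88 was 2.07 there, against 0.130 to 0.592 in the other 5 libraries.

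**Figure D1:**
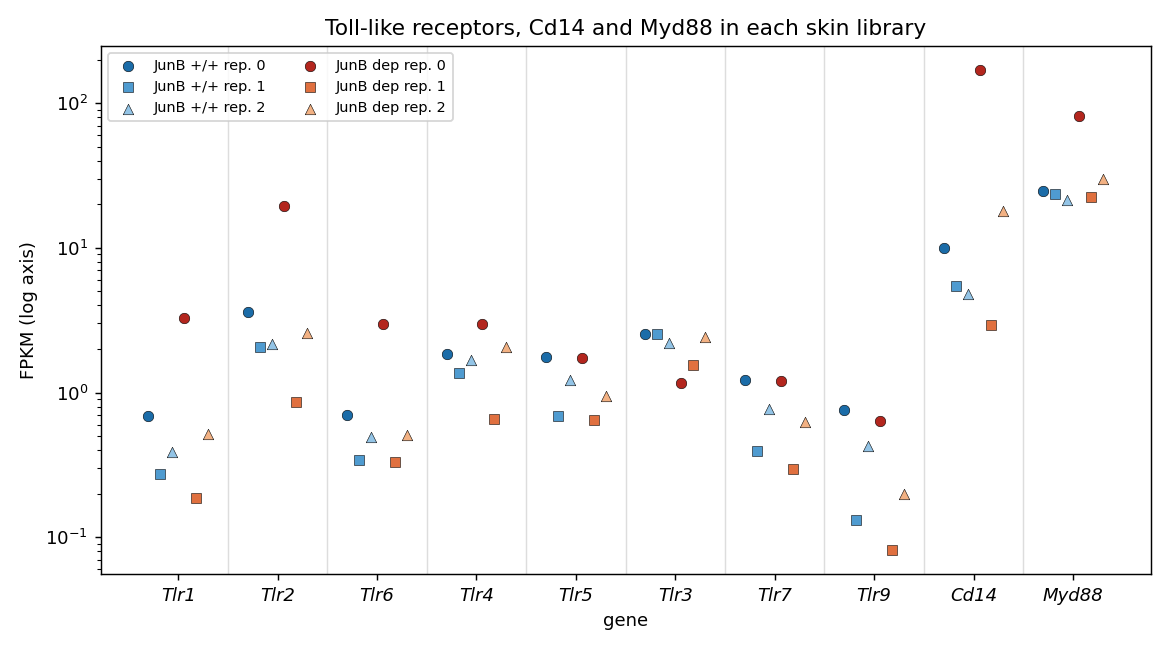
FPKM of each of the 10 genes in the 6 mice (log axis, 1 point per library, blue for JunB +/+ and red to orange for JunB dep). The ranges of JunB +/+ and JunB dep points overlap for every gene, and for Cd14, Tlr2, Tlr1 and Tlr6 the library labelled JunB dep replicate 0 sits at least 3 times above every other.

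Tlr2, the partner receptor common to both lipopeptide-binding pairs, was high in the library labelled JunB dep replicate 0 and not in replicates 1 and 2. The gene lies on mouse chromosome 3 (mm9, 83640195-83645689, minus strand) and its coding transcript has 3 exons. It was 3.63, 2.07 and 2.18 FPKM in JunB +/+ replicates 0, 1 and 2, and 19.6, 0.854 and 2.56 FPKM in the libraries labelled JunB dep replicates 0, 1 and 2. The library labelled JunB dep replicate 0 was 5.40 times the highest of the other 5, replicate 1 was the lowest of all 6, and replicate 2 lay within the control range. The difference between the groups was 0.52 on the log2(FPKM + 0.5) scale (SE 0.97, adjusted p = 0.857 from limma), with a 95% interval from -1.84 to 2.88. Without the library labelled JunB dep replicate 0 it was -0.58 (adjusted p = 0.790). In whole skin, for this and each gene below, a different number of cells of a type and a different amount of RNA per cell cannot be told apart.

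Tlr1 and Tlr6, which pair with Tlr2, were lower in level and also highest in the library labelled JunB dep replicate 0. Tlr1 was 0.692, 0.274 and 0.389 FPKM in the JunB +/+ replicates and 3.29, 0.185 and 0.518 FPKM in the libraries labelled JunB dep. Tlr6 was 0.699, 0.343 and 0.496 FPKM in JunB +/+ skin and 2.96, 0.333 and 0.505 FPKM in the JunB dep-labelled libraries. In the library labelled JunB dep replicate 0 they reached 7.28 and 5.77 times the control mean, beside 7.47 times for Tlr2, and in replicate 2 they lay within the control range. In replicate 1 Tlr1 and Tlr2 were below every control by more than Tlr6 was, at 0.333 FPKM beside 0.343 FPKM in the lowest control. The log2 differences between the groups were 0.56 for Tlr1 (SE 0.64, adjusted p = 0.770 from limma) and 0.51 for Tlr6 (SE 0.56, adjusted p = 0.762). They became -0.16 and -0.13 without the library labelled JunB dep replicate 0. The ratio of Tlr1 to Tlr6 within a library was 0.783 to 0.990 in JunB +/+ skin and 0.556 to 1.11 in the JunB dep-labelled libraries. What reads of their shared sequence add to these ratios was not tested.

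Cd14, a protein that hands lipopolysaccharide to Tlr4 and lipopeptides to Tlr2, had the widest range of the 10 genes in fold. It was 9.96, 5.49 and 4.79 FPKM in JunB +/+ replicates 0, 1 and 2, and 170, 2.91 and 17.8 FPKM in the libraries labelled JunB dep replicates 0, 1 and 2. The highest value, 25.1 times the control mean, was in the library labelled JunB dep replicate 0 and the lowest in replicate 1, and replicate 2 was also above every control. The group difference was 1.67 on the log2 scale (SE 1.35, 95% interval -1.63 to 4.96, adjusted p = 0.722 from limma), and 0.19 (adjusted p = 0.949) without the library labelled JunB dep replicate 0. Tlr4, the lipopolysaccharide receptor (mm9 chromosome 4, 66488618-66591318, plus strand, 3 exons in its coding transcript), had a far narrower range. Its levels were 1.86, 1.37 and 1.68 FPKM in the controls and 2.97, 0.660 and 2.07 FPKM in the JunB dep-labelled libraries. JunB dep replicates 0 and 2 lay above the controls and replicate 1 below, and the log2 difference was 0.04 (SE 0.43, adjusted p = 0.979 from limma), or -0.30 without the library labelled JunB dep replicate 0. In the library labelled JunB dep replicate 0, Tlr2 was 6.60 times Tlr4, against 1.23 to 1.96 times in the other 5.

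Tlr5, the flagellin receptor (mm9 chromosome 1, 184884919-184906175, plus strand, 4 exons), was 1.76, 0.685 and 1.22 FPKM in JunB +/+ replicates 0, 1 and 2 and 1.73, 0.649 and 0.941 FPKM in the libraries labelled JunB dep. The groups overlapped almost wholly, and the library labelled JunB dep replicate 0 was not the highest. The log2 difference was -0.11 (SE 0.36, 95% interval -0.98 to 0.77, adjusted p = 0.924 from limma) and -0.37 without that library.

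Tlr3, Tlr7 and Tlr9, the nucleic acid receptors among the 10 genes, were not at their highest in the library labelled JunB dep replicate 0. Tlr3, the receptor for double-stranded RNA (mm9 chromosome 8, 46481019-46495962, minus strand, 7 exons), signals through Ticam1 and not Myd88. It was 2.54, 2.54 and 2.19 FPKM in JunB +/+ skin and 1.16, 1.55 and 2.41 FPKM in the libraries labelled JunB dep. It was the only one of the 10 genes at its lowest in the library labelled JunB dep replicate 0, where it stood at 0.480 of the control mean. JunB dep replicates 0 and 1 lay below all 3 controls and replicate 2 within them. The log2 difference was -0.44 (SE 0.27, 95% interval -1.10 to 0.21, adjusted p = 0.722 from limma), and -0.26 (adjusted p = 0.806) without the library labelled JunB dep replicate 0. The ratio of Tlr2 to Tlr3 was 16.9 in that library and 0.551 to 1.43 in the other 5.

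Tlr7, which binds single-stranded RNA, was 1.21, 0.392 and 0.775 FPKM in JunB +/+ skin and 1.20, 0.297 and 0.623 FPKM in the JunB dep-labelled libraries. Tlr9, which binds unmethylated CpG DNA (mm9 chromosome 9, 106124929-106129207, plus strand, 2 exons), was 0.756, 0.132 and 0.426 FPKM in JunB +/+ skin and 0.631, 0.0813 and 0.200 FPKM in the JunB dep-labelled libraries. For both, replicate 0 was the highest library of each group and replicate 1 the lowest, and the groups overlapped. The log2 differences were -0.12 for Tlr7 (SE 0.37, adjusted p = 0.919 from limma) and -0.23 for Tlr9 (SE 0.36, adjusted p = 0.829), a scale that understates fold differences of genes this low. Without the library labelled JunB dep replicate 0 they were -0.40 and -0.50.

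Myd88, the adaptor of all these receptors except Tlr3 and of the interleukin-1 receptor family, lies on the same chromosome as Tlr9 (mm9 chromosome 9, 119245052-119250529, minus strand, 6 exons). It was 24.5, 23.7 and 21.3 FPKM in JunB +/+ replicates 0, 1 and 2, and 82.1, 22.4 and 30.1 FPKM in the libraries labelled JunB dep replicates 0, 1 and 2. Relative to their mean, the controls were the tightest of the 10 genes, at 23.2 ± 1.67 FPKM (SD, n = 3). The library labelled JunB dep replicate 0 was 3.55 times their mean, replicate 2 was above all of them and replicate 1 was within them. The log2 difference was 0.71 (SE 0.47, 95% interval -0.44 to 1.86, adjusted p = 0.722 from limma), and 0.17 (adjusted p = 0.810) without the library labelled JunB dep replicate 0.

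None of the 10 genes passed the threshold of an adjusted p below 0.05 in limma, and 0 of 10 had an unadjusted p below 0.05. Across all 17021 genes tested, 0% were called higher and 1.38% were called lower in JunB dep-labelled skin, and at an unadjusted p below 0.05 these shares were 1.43% and 6.13%. The groups were apart, with no overlap, for 0 of the 10 genes, where 5.62% of all genes lay wholly higher and 9.16% wholly lower in the JunB dep-labelled libraries. With 3 mice a group an exact permutation test of a single gene cannot give a p below 0.1. The log2 difference was positive for 6 of the 10 genes and negative for 4, with a median of 0.27, against 0.03 over all genes tested. Without the library labelled JunB dep replicate 0 it was positive for 2 of 10, Cd14 and Myd88, with a median of -0.28, again against 0.03 over all genes.

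**Figure D2:**
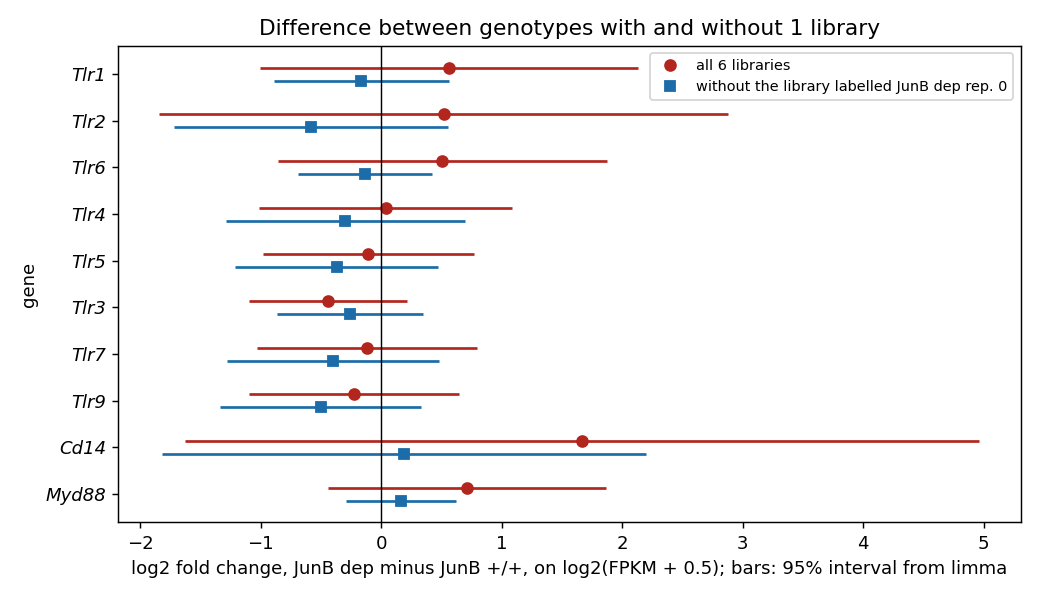
Difference between JunB dep and JunB +/+ skin for each of the 10 genes on the log2(FPKM + 0.5) scale, with 95% intervals from limma, for all 6 mice and without the library labelled JunB dep replicate 0. Every interval crosses 0 in both fits, and Cd14 has the widest.

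The 3 libraries labelled JunB dep went different ways. Relative to the mean log2 level of the controls, 9 of the 10 genes were higher in the library labelled JunB dep replicate 0 (median 1.25 on the log2 scale), 0 of 10 in replicate 1 (median -0.58) and 6 of 10 in replicate 2 (median 0.00), where the medians over all genes were -0.02, 0.00 and 0.00. Tlr3 was the exception in the first of these, at -0.81. In replicate 1 the differences ran from -0.04 for Myd88 to -1.17 for Tlr2, and in replicate 2 from -0.37 for Tlr9 to 1.41 for Cd14. The library labelled JunB dep replicate 0 was the highest of all 6 for Tlr1, Tlr2, Tlr4, Tlr6, Cd14 and Myd88, which is 6 of 10, against 29.7% of all genes tested. It was at least 3 times any other library for Tlr1, Tlr2, Tlr6 and Cd14, 4 of 10, against 3.64% of all genes. JunB dep replicate 1 was the lowest library for 8 of 10, against 17.6%, the exceptions being Tlr3 and Myd88. The remaining 4 genes, Tlr3, Tlr5, Tlr7 and Tlr9, were highest in JunB +/+ replicate 0. The numbers in the sample names form a lower and a higher series, whose meaning the labels do not give. In the lower one (JunB +/+ replicates 0 and 1 and the library labelled JunB dep replicate 0) the difference between the genotype labels was positive on the log2 scale for 9 of 10 genes. In the higher one (JunB +/+ replicate 2 and JunB dep replicates 1 and 2) it was positive for 2 of 10, which were 0.58 for Cd14 and 0.28 for Myd88.

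Markers of the cells that carry these receptors moved between libraries too. The summed level of the leukocyte markers Ptprc, Laptm5 and Coro1a (3 of 3 measured) was 107, 73.8 and 55.5 FPKM in JunB +/+ replicates 0, 1 and 2 and 149, 32.8 and 66.6 FPKM in the libraries labelled JunB dep replicates 0, 1 and 2. Markers of monocytes and macrophages (10 of 10 measured) summed to 318 to 619 FPKM in JunB +/+ skin and 130 to 823 FPKM in JunB dep-labelled skin. All 10 were lowest in JunB dep replicate 1, the library where 8 of the 10 members were lowest. The top of the range was the library labelled JunB dep replicate 0, where Lyz2 alone made up 557 FPKM. Of these markers, 5 were highest in that library and the other 5, Emr1, Csf1r, Mrc1, Cd163 and Ly6c2, in JunB +/+ replicate 0. Neutrophil markers (9 of 10 measured) summed to 14.3 to 1779 FPKM in JunB +/+ skin and 23.7 to 25028 FPKM in the libraries labelled JunB dep. The top of that range was replicate 0, where S100a8 alone made up 24456 FPKM and S100a9 is listed at 0. Of the 9 markers, 6 were highest in that library and the other 3, S100a9, Ngp and Camp, in JunB +/+ replicate 0, with Ngp at 195 against 21.6 FPKM and Camp at 113 against 4.37 FPKM. Mmp8 is listed at 0 in JunB dep replicate 1. Dendritic and Langerhans cell markers (7 of 7 measured) summed to 29.5 to 44.3 FPKM in the controls and 11.4 to 29.3 FPKM in the libraries labelled JunB dep. In replicate 1, 5 of these 7 were lowest, while Cd207 and Cd209a, the most abundant, were lowest in the library labelled JunB dep replicate 0, where Itgax was highest. Plasmacytoid dendritic cells and B cells are known carriers of Tlr7 and Tlr9. Markers of the former (4 of 4 measured) summed to 28.1 to 56.5 FPKM in JunB +/+ skin and 20.1 to 47.1 FPKM in the libraries labelled JunB dep, of which Bst2, which many cell types express, made up most. Siglech, the most specific of them, was 1.40, 0.824 and 0.988 FPKM in JunB +/+ skin and 0.140, 0.151 and 0.528 FPKM in the libraries labelled JunB dep. It was lower in all 3, as were 9.16% of all genes, with a log2 difference of -1.04 (SE 0.27, adjusted p = 0.257 from limma). The groups overlapped for Bst2, Ccr9 and Spib. Ccr9 and Spib were highest in the library labelled JunB dep replicate 0, at 0.512 and 0.554 FPKM. Their log2 differences were -0.02 and 0.19, and that of Bst2 was -0.45. B cell markers (4 of 4 measured) summed to 1.65 to 3.83 and 0.947 to 5.61 FPKM. T cell markers were 17.8 to 41.2 FPKM in JunB +/+ skin and 15.2 to 29.0 FPKM in JunB dep-labelled skin. The part of these markers in the members' levels was not tested.

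**Figure D3:**
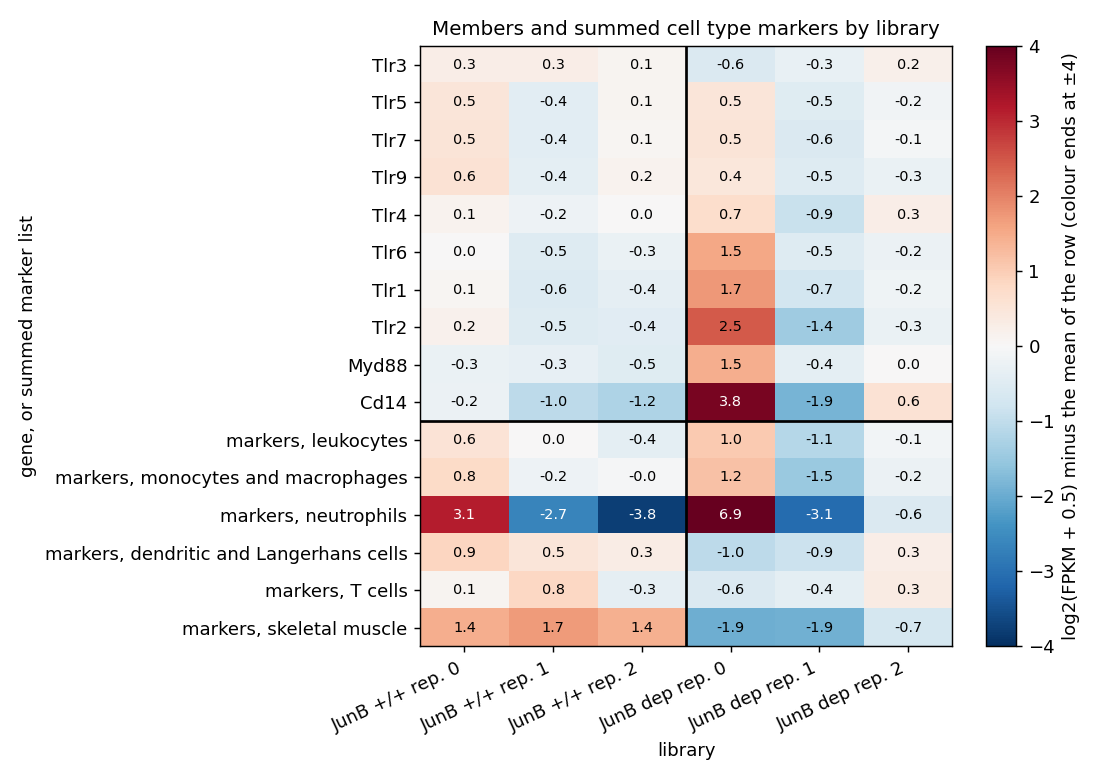
Log2(FPKM + 0.5) of the 10 genes and of the summed markers of 6 cell types in each library, relative to the mean of the row over the 6 libraries, with colours ending at 4 in either direction. The library labelled JunB dep replicate 0 is dark red for Cd14 and neutrophil markers and red for Tlr1, Tlr2, Tlr6 and Myd88, and JunB dep replicate 1 is blue for all 10 genes and for the leukocyte, macrophage and neutrophil markers.

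Set against the summed leukocyte markers, 9 of the 10 genes had a smaller fold range over the 6 libraries than in FPKM. This ratio was chosen after the values were seen, and it has no test. Tlr3 was the exception, with a range of 6.06-fold against 2.19-fold in FPKM. Per 1000 FPKM of leukocyte markers, Tlr4 was 17.4, 18.5 and 30.3 in JunB +/+ replicates 0, 1 and 2 and 19.9, 20.1 and 31.1 in the libraries labelled JunB dep replicates 0, 1 and 2, a spread of 1.79-fold over the 6 mice against 4.50-fold in FPKM. That was the smallest range on this ratio among the 10 genes. Cd14 still had the widest, 15.3-fold against 58.3-fold in FPKM, at 93.5, 74.3 and 86.2 in JunB +/+ skin and 1138, 88.6 and 268 in the JunB dep-labelled libraries. Tlr2 was 28.0 to 39.2 in JunB +/+ skin, 132 in the library labelled JunB dep replicate 0 and 26.0 and 38.4 in replicates 1 and 2, so only that 1 library left the control range upwards. Myd88 was 230, 320 and 384 in JunB +/+ skin and 551, 683 and 452 in the JunB dep-labelled libraries. It was the only gene of the 10 whose groups did not overlap on this ratio, higher in all 3 libraries labelled JunB dep and so also in replicates 1 and 2 alone, where 2.2% of all genes were wholly higher and 3.61% wholly lower. In replicate 1, where this ratio was highest, Myd88 itself was within the controls at 22.4 FPKM and the leukocyte sum, 32.8 FPKM, was below all of them, and Myd88 is not confined to leukocytes.

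The genes whose profile over the 6 mice was closest to each member were found by the root mean square difference between log2(FPKM + 0.5) profiles, each centred on its own mean, among the 13742 genes that averaged 1 FPKM or more. Tlr1, Tlr6, Tlr7 and Tlr9 average less than that and entered only as members to be matched. The added 0.5 FPKM damps genes below 1 FPKM, and without it, an alternative chosen after seeing the data, 7 of the 20 nearest genes named here were again among the 2 nearest to their member. With it, Tlr5 was the closest gene to Tlr7, at 0.0523 on the log2 scale, and to Tlr9, at 0.0651. Without it the distance of Tlr5 was 0.209 to Tlr7 and 0.623 to Tlr9, and Tlr5 was no longer among the 2 nearest to Tlr9. For Tlr2 the closest were Clec7a, the beta-glucan receptor Dectin-1 of myeloid cells, at 0.106, and Cd300ld at 0.157, and Clec7a was also the closest without the 0.5 FPKM. Clec7a was 3.00, 1.47 and 1.86 FPKM in JunB +/+ skin and 14.8, 0.770 and 2.00 FPKM in the JunB dep-labelled libraries, which sets it beside Tlr2 in all 6 libraries. Tlr4 was closest to Tgfbr2, a receptor for transforming growth factor beta, at 0.0940, and to Itgax, the integrin CD11c of dendritic cells and macrophages, at 0.0989. For Cd14 the nearest genes were farther off, the interferon-induced Ifitm1 at 0.360 and P-selectin, Selp, at 0.367. Myd88 was nearest to Tle6 at 0.0824 and Tes at 0.0908, Tlr3 to Bcs1l at 0.0521 and Aff1 at 0.0569, Tlr1 to Gsap at 0.0906 and Fam57a at 0.117, and Tlr6 to Car13 at 0.0846 and Myof at 0.0904. The second nearest of Tlr9 was Olfml2b at 0.0700, that of Tlr7 was Ms4a8a at 0.101, and the nearest to Tlr5 were H2-T24 at 0.109 and Ms4a8a at 0.111. Among pairs of members, Tlr7 and Tlr9 stood at 0.0855, Tlr1 and Tlr6 at 0.135 and Tlr6 and Myd88 at 0.203. Tlr2 stood at 0.417 from Tlr1 and 0.541 from Tlr6. Without the added 0.5 FPKM the order of the pairs of Tlr1, Tlr2 and Tlr6 turned, with 0.228 between Tlr1 and Tlr2, 0.334 between Tlr1 and Tlr6 and 0.443 between Tlr2 and Tlr6. Tlr7 and Tlr9 then stood at 0.451 and Tlr6 and Myd88 at 0.494. These distances were taken only with all 6 libraries, the library labelled JunB dep replicate 0 included, and carry no test.

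Of 70 other genes of the pathway, listed by function, 68 were tested and 0 were called by limma in either direction, beside 0% of all genes called higher and 1.38% called lower. At an unadjusted p below 0.05 there was 1 of 68, the lower Tlr11, where 1.43% of all genes were higher and 6.13% lower. The log2 difference was positive for 50 and negative for 18, with a median of 0.23, and 44 of the 68 were highest in the library labelled JunB dep replicate 0. Without that library the median was -0.01. The groups did not overlap for 9 of the 68, 6 higher and 3 lower in the JunB dep-labelled libraries, where 5.62% of all genes were wholly higher and 9.16% wholly lower.

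The other Toll-like receptors (4 tested, median log2 difference 0.01) did not share 1 pattern. Tlr11, which binds a protozoan profilin, was 0.553, 0.233 and 0.422 FPKM in JunB +/+ replicates 0, 1 and 2 and 0.0279, 0.0817 and 0.141 FPKM in the JunB dep-labelled libraries. All 3 lay below all 3 controls, and its log2 difference of -0.62 (SE 0.20) had an adjusted p of 0.432 from limma, and was -0.55 without the library labelled JunB dep replicate 0. Tlr13, a receptor for bacterial ribosomal RNA, was 0.162 to 0.424 FPKM in JunB +/+ skin and 5.70, 0.136 and 0.357 FPKM in the JunB dep-labelled libraries. It was thus highest in the library labelled JunB dep replicate 0, unlike Tlr7 and Tlr9. Tlr13 had a log2 difference of 0.95 (SE 0.86, adjusted p = 0.725 from limma), and -0.07 without the library labelled JunB dep replicate 0.

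Co-receptors and ligand-binding proteins other than Cd14 (5 tested) had a median log2 difference of -0.68, with 1 of 5 positive. Ly86, the MD-1 partner of the receptor homologue Cd180, was 15.5, 10.2 and 9.76 FPKM in JunB +/+ skin and 8.99, 3.94 and 9.51 FPKM in the JunB dep-labelled libraries, with all 3 of them lower and a log2 difference of -0.68 (SE 0.38, adjusted p = 0.722 from limma). Cd36, a fatty acid and lipopeptide receptor that adipocytes and endothelium also carry, was 94.5 to 144 FPKM in JunB +/+ skin and 14.1, 74.0 and 296 FPKM in the JunB dep-labelled libraries. The adipocyte markers were likewise at their lowest in the library labelled JunB dep replicate 0 (3.04 FPKM in sum) and highest in replicate 2 (1662 FPKM), and their part in the Cd36 values was not tested. The log2 difference of Cd36 was -0.87 (SE 1.04, adjusted p = 0.783 from limma), and 0.25 without the library labelled JunB dep replicate 0. Lrrc59, which helps nucleic acid receptors leave the endoplasmic reticulum, had the greatest difference among 4 chaperones, 0.70 (SE 0.44, adjusted p = 0.722 from limma), which was 0.28 without the library labelled JunB dep replicate 0. Ticam2, the bridging adaptor of Tlr4, had the greatest among 5 other adaptors, at -0.49 (SE 0.27, adjusted p = 0.722), or -0.57 without that library.

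The median difference of the signalling components was small. Of 16 kinases and ubiquitin enzymes 13 had a positive log2 difference, with a median of 0.15, or 0.08 without the library labelled JunB dep replicate 0. In that library 9 of the 16 were highest. Relative to the controls the median was 0.32 there, against 0.08 and 0.09 in replicates 1 and 2. Levels in the library labelled JunB dep replicate 0 ran from 0.712 times the control mean for Tab1 to 2.34 times for Irak4. Tbk1, a kinase that acts on Irf3, was 9.77 to 10.8 FPKM in JunB +/+ skin and 11.1 to 15.7 FPKM in the JunB dep-labelled libraries, and Tab3, a partner of the kinase Map3k7, was 2.45 to 2.64 FPKM and 2.77 to 3.21 FPKM. Those were the 2 of 16 whose groups did not overlap, where 5.62% of all genes were wholly higher and 9.16% wholly lower. Ube2n, a ubiquitin-conjugating enzyme of the Traf6 step, had the greatest difference, 0.43 (SE 0.24, adjusted p = 0.722 from limma). Without the library labelled JunB dep replicate 0, Ube2n was at 0.19, Tbk1 fell from 0.30 to 0.15, and Tab3 was at 0.20 in both fits.

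All 7 transcription factors had a positive difference, with a median of 0.35, and 0.21 without the library labelled JunB dep replicate 0. Rela, the NF-kB subunit p65, was 29.1, 31.5 and 26.9 FPKM in the controls and 45.0, 31.8 and 36.1 FPKM in the JunB dep-labelled libraries, just apart, with a log2 difference of 0.35 (SE 0.18, adjusted p = 0.722 from limma), or 0.21 without the library labelled JunB dep replicate 0. Rel, the myeloid and lymphoid subunit, had the greatest at 0.82 (SE 0.51, adjusted p = 0.722), which was 0.24 without the library labelled JunB dep replicate 0. Of 9 inhibitors, 5 had a positive difference. Tnfaip3, the ubiquitin-editing enzyme A20, was 5.26 to 6.62 FPKM in JunB +/+ skin and 20.7, 6.65 and 9.25 FPKM in the JunB dep-labelled libraries, so that all 3 lay above the controls, although replicate 1 did so by a margin far below the spread of the controls. Its log2 difference was 0.87 (SE 0.42, adjusted p = 0.719 from limma), and 0.42 without the library labelled JunB dep replicate 0. The deubiquitinase Cyld went the other way, from 5.33 to 5.79 FPKM in the controls and from 3.68 to 5.18 FPKM in the JunB dep-labelled libraries. Il1rl1, the interleukin-33 receptor, was listed with the inhibitors. It had the greatest difference of that list at 0.97 (SE 1.03, adjusted p = 0.754 from limma), which was -0.25 without the library labelled JunB dep replicate 0.

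The 5 genes listed as other receptors that signal through Myd88 had a median of 0.28, or 0.01 without the library labelled JunB dep replicate 0. Il1rl1 was listed with the inhibitors and is not counted here. Il18rap, the accessory chain of the interleukin-18 receptor, had the greatest difference of these 5, 0.90 (SE 0.76, adjusted p = 0.722 from limma). It was 0.013 without the library labelled JunB dep replicate 0. The response genes of the pathway held the greatest differences of all the lists and rested most on 1 library. Of 15 listed, 13 were tested, all 13 with a positive log2 difference, at a median of 1.72, and their medians relative to the controls were 5.99, -0.09 and -0.02 in the libraries labelled JunB dep replicates 0, 1 and 2. The acute-phase gene Saa3 was 1.31 to 9.67 FPKM in JunB +/+ skin and 3720, 24.0 and 3.37 FPKM in the JunB dep-labelled libraries. The neutrophil chemokine Cxcl2 was 0.0781 to 0.149 FPKM in JunB +/+ skin and 244, 0.279 and 0.926 FPKM in the JunB dep-labelled libraries. Nfkbiz, an inhibitor-family protein that NF-kB induces, was 11.5, 9.90 and 10.5 FPKM in JunB +/+ skin and 65.0, 13.1 and 22.2 FPKM in the JunB dep-labelled libraries. Cxcl2 and Nfkbiz were higher in all 3 than in any control, and their log2 differences were 3.42 (SE 2.14, adjusted p = 0.722 from limma) and 1.29 (SE 0.56, adjusted p = 0.681). The median of the response genes without the library labelled JunB dep replicate 0 was -0.06. Without it the difference of Saa3 went from 4.28 (SE 2.48, adjusted p = 0.722 from limma) to 1.43, that of Cxcl2 to 0.80 and that of Nfkbiz to 0.66.

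**Figure D4:**
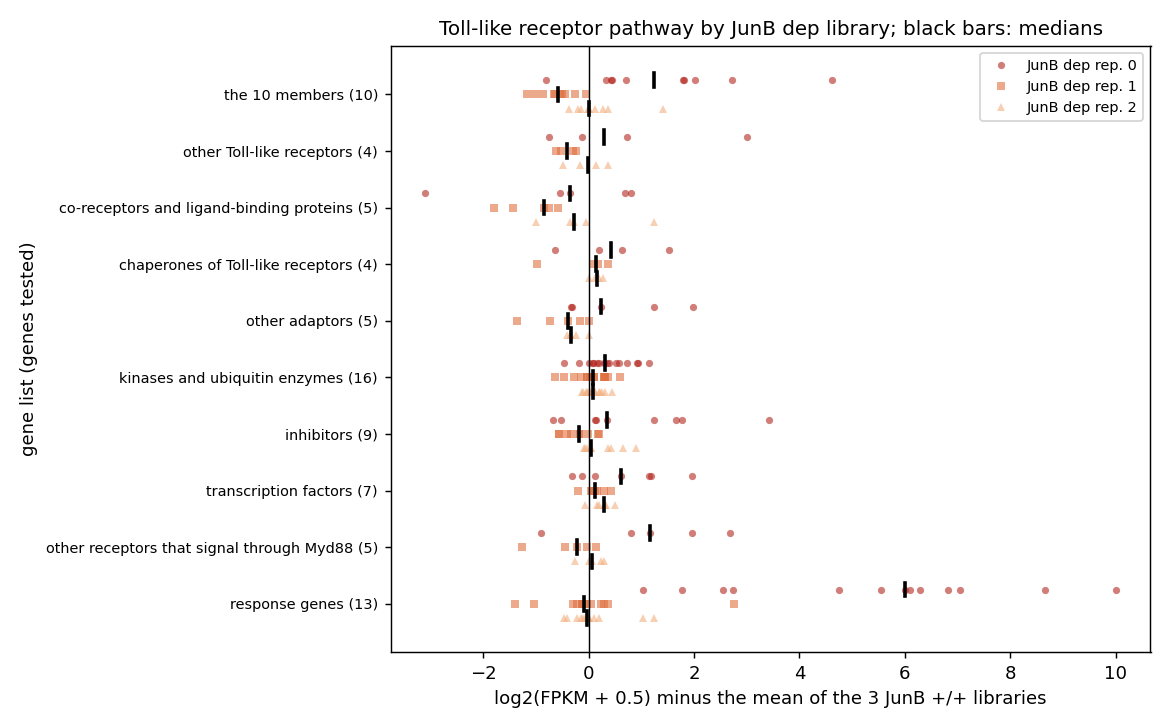
Log2(FPKM + 0.5) of each JunB dep library minus the mean of the 3 JunB +/+ libraries, 1 point per gene and library, by list of pathway genes, with black bars at the medians. The response genes have a median of 5.99 in the library labelled JunB dep replicate 0, against -0.09 and -0.02 in replicates 1 and 2.

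A second division of the libraries ran across the genotypes. Xist, the RNA of the inactive X chromosome, was at most 0.0274 FPKM in JunB +/+ replicates 0 and 2 and the library labelled JunB dep replicate 0, and 27.6 to 34.2 FPKM in JunB +/+ replicate 1 and JunB dep replicates 1 and 2. The sex of the mice is not in the labels, and this division was made after the values were seen. Tlr5, Tlr7 and Tlr9, 3 of the 10 genes, were higher in every low-Xist library than in any high-Xist library, and 0 of 10 were wholly lower, where 5.41% of all genes were wholly higher and 7.26% wholly lower. Tlr5 was 1.22 to 1.76 FPKM in the low-Xist libraries and 0.649 to 0.941 FPKM in the others. Tlr7, which lies on the X chromosome (mm9, 163742861-163768490, minus strand), was 0.775 to 1.21 and 0.297 to 0.623 FPKM, and Tlr9 was 0.426 to 0.756 and 0.0813 to 0.200 FPKM. Tlr8, the neighbour of Tlr7 and not among the 10 genes, was 0.388 to 0.878 and 0.0458 to 0.250 FPKM. The summed markers of monocytes and macrophages were also apart, at 352 FPKM or more in the low-Xist libraries and 318 FPKM or less in the others. Lyz2 made up 206 FPKM of the sum in JunB +/+ replicate 2 and 172 FPKM in replicate 1. The gap between the sums thus rests on Lyz2. C1qa and Cd163 overlapped, with C1qa at 67.2 FPKM in JunB +/+ replicate 2 and 82.5 FPKM in replicate 1. Each of the other markers was apart. The part of these markers in the levels of these receptors was not tested. With a term for this division in the fit, the log2 difference between the genotypes became 0.15 for Tlr5, 0.14 for Tlr7 and 0.04 for Tlr9. The same term moved the positive differences further up, to 2.46 for Cd14, 1.13 for Tlr2, 0.99 for Tlr1, 0.98 for Myd88, 0.89 for Tlr6 and 0.25 for Tlr4, and that of Tlr3 down to -0.55, with a median of 0.57 over the 10 genes. None of them was called in that fit, which keeps the library labelled JunB dep replicate 0.

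**Figure D5:**
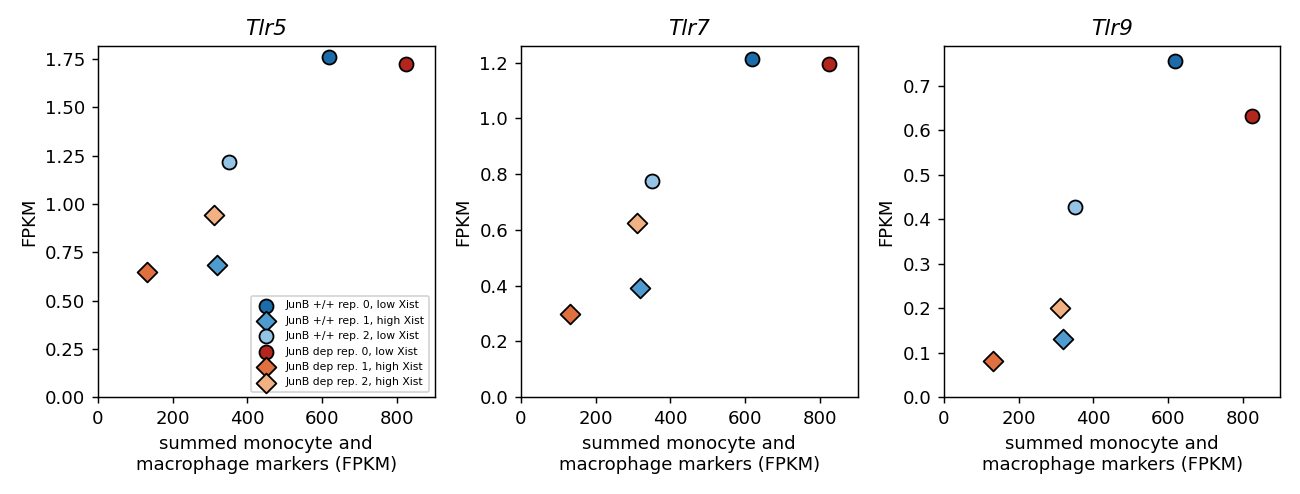
FPKM of Tlr5, Tlr7 and Tlr9 against the summed FPKM of 10 monocyte and macrophage markers in the 6 libraries, with low-Xist and high-Xist libraries marked. The 3 low-Xist libraries lie above the 3 others on both axes, and on the marker axis the gap rests on Lyz2, the largest part of the sum.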

How the data were processed

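The authors aligned poly(A)-selected, strand-specific reads to mm9 with TopHat and deposited a table of gene FPKM values with a column for each mouse. The submitters' processing notes name FastQC, TopHat2 2.0.10, Bowtie 1.0.0, SAMtools 0.1.19 and Cufflinks without roles, and do not say whether libraries were scaled further. The authors tested counts with DESeq2. Counts were not analysed here, and limma 3.58.1 (R 4.3.3, intensity trend, two-sided, Benjamini-Hochberg adjustment) was run on log2(FPKM + 0.5) over 17021 genes averaging 0.1 FPKM or more, after a check on simulated data. Fold differences on this scale understate those of low genes. Groups came from the genotype labels.

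The members and all gene lists were chosen with earlier results of these data known. All 10 members are named. Of other pathway genes, those called, those whose groups do not overlap and the greatest absolute difference in each list are named, with the 2 nearest profiles of each member. Tlr8, single cell type markers and the member pairs were named after their values were seen. Sequences came from GENCODE (mm9) and RefSeq (GRCm38.p6). Alternatives were other pseudocounts, filters, scalings, variance models, blocks and left-out mice.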

Additional observations from a re-analysis of the deposited data

How the results depend on the processing

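Over 18 settings, 176 fits of single members were made, 0 of 10 members were called in any, and the lowest adjusted p from limma was 0.239. The direction held in 157 fits and turned in 19, of which 8 were among the 116 that kept all 6 mice. These 8 were Tlr4 at a pseudocount of 0.1 (-0.0031), Tlr5 and Tlr7 under quantile normalization (0.0302 and 0.0248), under a block on the sample-name series (0.0135 and 0.0129) and with a term for the Xist level, chosen after seeing the data (0.15 and 0.14), and Tlr9 with the Xist term (0.0408). The sample-name block and the Xist term moved the other members by over 1.5 times in places: under the sample-name block Cd14 was at 2.5, Tlr2 at 1.12, Tlr1 at 0.95, Tlr6 at 0.83, Tlr4 at 0.20 and Tlr9 at -0.10, with a member median of 0.51, and the Xist term gave a median of 0.57. At a pseudocount of 0.1 Tlr9 was at -0.47 and Tlr7 at -0.20, at a pseudocount of 1 Tlr9 was at -0.14, and under quantile normalization Tlr9 was at -0.11 and Tlr4 at 0.16. Over all genes, 235 were called, against 0 with a replicate block, 0 with the sample-name block and 47 with the Xist term. Without 1 mouse at a time that count ran from 0 to 251: it was 0 without each JunB +/+ mouse or JunB dep replicate 1, 251 without JunB dep replicate 2 and 131, of which 11 were higher, without the library labelled JunB dep replicate 0. The replicate block called 0 members. Same-numbered libraries deviated from their group means with correlations of 0.12, -0.23 and -0.43, so the numbers were not taken as pairs, and not every library correlated best with its own number. Leaving out 1 mouse at a time, the log2 difference ran from -0.16 to 1.07 for Tlr1, -0.58 to 1.36 for Tlr2, -0.66 to -0.26 for Tlr3, -0.30 to 0.49 for Tlr4, -0.37 to 0.11 for Tlr5, -0.13 to 0.90 for Tlr6, -0.40 to 0.14 for Tlr7, -0.50 to 0.0128 for Tlr9, 0.19 to 3.01 for Cd14 and 0.17 to 1.09 for Myd88, and the member median from -0.28 to 0.69. With a filter of 1 FPKM, Tlr1, Tlr6, Tlr7 and Tlr9 were not tested. The cause of these changes was not tested. Depth is unknown, so the counting error of the lowest genes cannot be given.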
